A study of Arabidopsis thaliana with 20 samples.

Results

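Late embryogenesis abundant (LEA) proteins are small, hydrophilic and largely unstructured proteins that build up in the embryo as the seed dries, and many of them return in vegetative tissue under drought, cold or abscisic acid. They are known to shield membranes and enzymes from water loss. Dehydrins are the LEA family best known from leaves and roots, while Em proteins and seed maturation proteins are known mainly from seeds, where the abscisic acid factors ABI3 and ABI5 switch on many of their genes and where their transcripts normally vanish after germination.

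The genes described here are 44 Arabidopsis thaliana genes chosen by locus identifier: LEA groups 1 to 6, the seed maturation proteins, the M10 and M17 pair, 8 dehydrins and the LEA-annotated gene AT5G38760, without the cold-induced COR genes. Group numbers follow the protein domain, so the genes named LEA4-1, LEA4-2 and LEA4-5 belong to group 1. All 44 were found among the 33602 genes of the chromatin-bound RNA tables and among the 33554 genes of the mRNA table.

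The study compared seedlings of the wild type Col-0 with the rz-1b rz-1c double mutant, in which the genes of a pair of glycine-rich RNA-binding proteins are mutated; these proteins have known roles in splicing. Both genotypes grew for 10 days at 22 °C with 16 h of light and 8 h of dark. Chromatin-bound RNA, depleted of ribosomal and polyadenylated RNA and rich in transcripts still being made, came from 4 libraries per genotype, deposited as 2 replicate columns of FPKM, which scales fragments to gene length and library total. mRNA came from 3 libraries per genotype, for which the authors' deposited table has 1 value per genotype, read here as FPKM, and 1 q value per gene. Whether replicates were separate cultures is not stated in the labels, and p-values thus reflect the spread between these samples, which may be technical.

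The targeted genes were lower in mutant mRNA, with RZ-1C at 31.7 FPKM in Col-0 and 2.77 in the mutant and RZ-1B at 15.2 and 2.299 in the authors' deposited table. Chromatin-bound RZ-1C was also lower in the mutant (limma adjusted p = 0.00523), and chromatin-bound RZ-1B was 13.8-fold higher. Total fragment counts are not given. From the step size of low FPKM values, with wild-type replicate 2 set to 1, the other columns were 1.51, 2.80 and 2.98 times as deep, both mutant columns being the deeper ones. Of each FPKM total, ribosomal RNA genes took 53.6% and 60.5% in the wild-type columns and 31.6% and 34.1% in the mutant columns. The part of depth and of this share in the results was not tested. As a reading of leaf RNA, 5 leaf photosynthesis genes had a summed chromatin-bound level between 982 and 1227 FPKM in every column. Much of that sum was RBCS1A, at 912 and 654 FPKM in the wild-type columns and 550 and 700 in the mutant columns. Among the others, LHCB2.1 and LHCB3 were 2.05-fold and 1.89-fold higher in the mutant (limma adjusted p = 0.0365 and 0.0367). LHCA1 was 1.51-fold higher without passing (0.0645), and PSAD2 was at 0.530 of the wild-type value (0.0289). The sum thus does not show that leaf RNA was even across columns, and it does not check the stage of the seedlings.

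LEA groups 5, 4 and 1 held 16 of the 22 members called higher in mutant chromatin-bound RNA, and 4 of the 8 dehydrins were lower in its mRNA in the authors' deposited table. limma on log2(FPKM + 1) called 22 members higher and 0 lower in mutant chromatin-bound RNA, while 9 tested members did not pass and 13 were under the filter of a mean of 1 FPKM. Across all 19694 genes tested, 13.2% were called higher and 4.24% lower at a limma adjusted p under 0.05. At an unadjusted p under 0.05 limma had 24 members higher and 1 lower. The share of all genes at an unadjusted p was not counted, and the adjusted shares are no measure for it. In mRNA, the authors' deposited table has 23 of the 44 members higher and 7 lower at a q under 0.05, against 10.5% and 11.0% of all listed genes. Of the 44 members 19 were called higher in both kinds of RNA, which is 19 of the 22 chromatin-bound calls and 19 of the 23 mRNA rises, and 2.79% of all genes were. In bulk seedlings, more cells of a kind and more RNA per cell cannot be told apart.

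Of the 31 tested members 17 had a wild-type mean under 1 FPKM and entered the test only through their mutant values. Of these 17 members 16 were called higher, where 43.0% of all tested genes with such a wild-type mean were. Among the 14 with a wild-type mean of at least 1 FPKM, 6 were called higher, against 11.8% of such genes. With no filter, so that all 44 members and all 33602 genes were tested, limma called 11 members higher and 0 lower, against 1.41% and 0.259% of all genes. The calls lost without the filter were those of M17 (limma adjusted p = 0.0520), AT2G42560 (0.0667), AT3G53040 (0.0686), LEA4-1 (0.0740), LEA7 (0.0840) and AT3G15670 (0.0904), and of RAB28, AT2G21490, AT5G27980, LEA14 and RAB18 (0.119 to 0.202). With mutant replicate 2 left out the count of higher members was 13. After median-of-ratios or quantile rescaling, 20 and 19 members were called higher. The shares of all genes called with that column left out and after rescaling were not counted.

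Both mutant columns lay above both wild-type columns for 28 members, below them for 2, SAG21 and HIRD11, and overlapped for 14. Over all genes the shares were 35.1% above and 10.4% below. In the wild type 14 members were listed at 0 in both columns, and 10 of these were above 0 in both mutant columns. Of all 33602 genes, 11278 and 12290 were listed at 0 in the wild-type columns and 9446 and 9461 in the deeper mutant columns. The share of all genes at 0 in both wild-type columns and above 0 in both mutant columns was not counted. The median chromatin-bound change of all 44 members, without the filter, was 1.23 on the log2 scale, beside 0.05 for all genes. For tested genes the medians were 2.68 and 0.27, the latter a shift that was 0.02 after either rescaling. These 2 medians are over unlike sets. Of the 31 tested members 17 passed the filter only through their mutant values, which raises the members' median. Of all 19694 tested genes 892 had such a wild-type mean. In mRNA the median log2 ratio was 5.03 over the 39 members with a value above 0 in both genotypes, from the authors' deposited table, and -0.00 over all such genes.

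**Figure D1:**
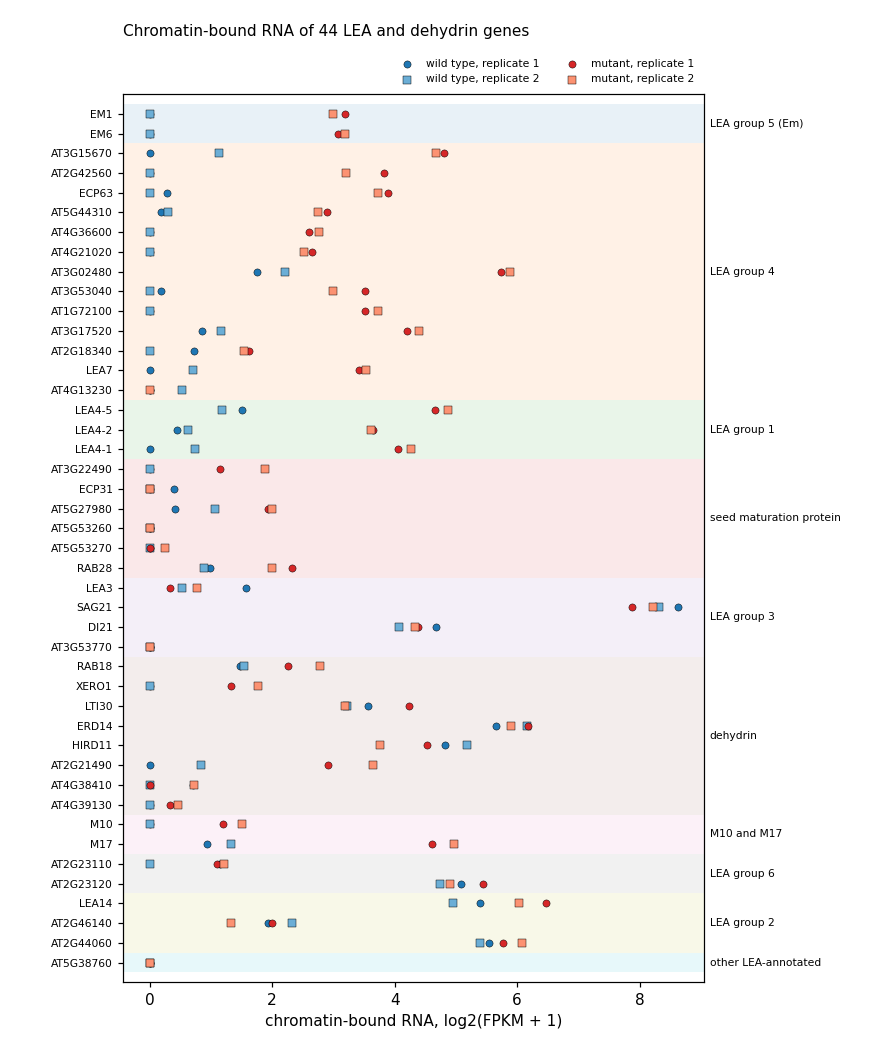
Chromatin-bound level of each of the 44 members (rows, shaded by subfamily) in the 2 wild-type columns (blue) and 2 mutant columns (red), as log2(FPKM + 1); points with the same value overlie each other. In LEA groups 5, 4 and 1 most red points stand apart to the right of the blue ones, while the colours mix for 3 of the 4 genes of LEA group 3 and for the dehydrins LTI30, ERD14 and AT4G38410.

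The Em genes EM1 and EM6 make up LEA group 5 and are textbook targets of ABI5 in ripening seeds. EM1 was listed at 0 FPKM in both wild-type columns of chromatin-bound RNA and was at 8.14 and 6.999 in the mutant columns. EM6 was likewise listed at 0 in both wild-type columns, against 7.47 and 8.17. Both rose, with log2 differences of 3.10 (SE 0.26) and 3.14 (SE 0.25) and limma adjusted p = 0.00117 and 0.00104. The authors' deposited table gives EM1 mRNA as 0.209 FPKM in Col-0 and 56.2 in the mutant (q = 0.00800). EM6 mRNA is listed there at 2.15 and 75.3 FPKM, a 35.1-fold rise (q = 0.000329, the smallest q in that table).

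LEA group 4, whose proteins fold into helices on drying, had 13 members. In chromatin-bound RNA 11 rose, 1 did not pass and 1 was not tested. Their summed level was 4.35 and 7.36 FPKM in the wild-type columns and 173 and 171 in the mutant columns. In mRNA 11 rose in the authors' deposited table and the sum went from 71.3 to 4209 FPKM. A single gene, AT3G02480, made up most of that mRNA sum.

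AT3G02480 was the member with the highest mutant mRNA. Its chromatin-bound level was 2.38 and 3.61 FPKM in Col-0 and 52.1 and 58.2 in the mutant, a 18.4-fold rise (log2 difference 3.83, SE 0.21, limma adjusted p = 0.000519). The mRNA values in the authors' deposited table are 53.3 and 2893 FPKM, a 54.3-fold rise (q = 0.000329). Among the 44 members it stood first in the mutant's mRNA, above the dehydrin HIRD11, which stood first in the wild type.

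AT3G15670 rose in chromatin-bound RNA by 4.17 on the log2(FPKM + 1) scale (SE 0.36, limma adjusted p = 0.00136), the largest change of any member at that pseudocount but not at a pseudocount of 0.1, where AT1G72100 led with 6.83 against 6.17, or without wild-type replicate 1, where ECP63 had 3.81 against 3.61. It was at 0 and 1.18 FPKM in Col-0 and at 26.9 and 24.4 in the mutant, and its mRNA was 171-fold higher in the authors' deposited table. AT3G17520 was at 0.819 and 1.25 FPKM in Col-0 and at 17.4 and 20.2 in the mutant, 18.2-fold higher (limma adjusted p = 0.000727). Its mRNA in the authors' deposited table went from 3.83 to 194 FPKM. Each of these genes had groups that did not overlap.

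ECP63, named from an embryonic cell protein, was at 0.224 and 0 FPKM in Col-0 and 13.8 and 12.3 in the mutant (log2 difference 3.66, SE 0.25, limma adjusted p = 0.000727). AT2G42560 and AT1G72100 were listed at 0 in both wild-type columns, the first being at 13.1 and 8.26 FPKM in the mutant and the second at 10.4 and 12.2. They rose by log2 differences of 3.52 and 3.62 (limma adjusted p = 0.00115 and 0.000727). In the authors' deposited table the mRNA of ECP63, AT2G42560 and AT1G72100 was under 0.3 FPKM in Col-0, and 41.6, 38.9 and 22.3 FPKM in the mutant. LEA7, which overlaps the gene AT1G52695, listed at 0 throughout, was at 0 and 0.628 FPKM against 9.73 and 10.6 (limma adjusted p = 0.00176), but without mutant replicate 2 the limma adjusted p was 0.0502. LEA7 mRNA rose 32.4-fold in the authors' deposited table.

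The other 4 rises of group 4 were smaller or came from lower levels. AT4G36600 and AT4G21020 were listed at 0 in both wild-type columns, and AT5G44310 and AT3G53040 were under 0.3 FPKM in each. In the mutant columns these 4 were between 4.74 and 10.4 FPKM, and their log2 differences were 2.57 to 3.16 (limma adjusted p from 0.00154 to 0.00238). The authors' deposited table has all 4 under 1 FPKM in wild-type mRNA and between 61.1 and 135 FPKM in the mutant, with AT4G21020 the highest. AT4G36600 lost its call without mutant replicate 2 (limma adjusted p = 0.0555), and AT5G44310 and AT4G21020 lost theirs without either mutant replicate (0.0505 to 0.0534).

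Among the remaining members of group 4, AT2G18340 was at 0.652 and 0 FPKM in Col-0 and 2.08 and 1.92 in the mutant (log2 difference 1.22, limma adjusted p = 0.0513). It overlaps the homeobox gene HB24. AT4G13230 was the exception of its group, listed at 0 in both mutant columns and at 0 and 0.447 FPKM in Col-0. Its mRNA in the authors' deposited table was 1.202 and 0.646 FPKM (q = 0.302).

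LEA group 1 is the trio LEA4-1, LEA4-2 and LEA4-5, proteins known to help plants survive water deficit, and all 3 rose in both kinds of RNA. LEA4-5 was at 1.86 and 1.26 FPKM of chromatin-bound RNA in Col-0 and 24.2 and 28.2 in the mutant, a 16.8-fold rise (log2 difference 3.42, SE 0.22, limma adjusted p = 0.000658). LEA4-1 was at 0 and 0.680 FPKM against 15.6 and 18.3, and LEA4-2 at 0.367 and 0.549 against 11.5 and 11.3. The latter pair had limma adjusted p = 0.00104 and 0.000904. LEA4-2 mRNA in the authors' deposited table rose 50.3-fold, from 9.99 to 502 FPKM, LEA4-1 32.8-fold and LEA4-5 22.0-fold.

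M10 and M17 are neighbouring genes long used as markers of late seed maturation. M17 had 0.908 and 1.503 FPKM in the wild-type columns and 23.3 and 30.4 in the mutant columns, 22.3-fold higher (log2 difference 3.66, SE 0.24, limma adjusted p = 0.000720). M10, under the filter, was listed at 0 in both wild-type columns and at 1.298 and 1.86 in the mutant. Both rose in mRNA: the authors' deposited table has M17 at 1.296 and 113.6 FPKM and M10 at 0.740 and 33.98 (q = 0.000329 for each).

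Of the 6 seed maturation proteins 2 rose in chromatin-bound RNA and 4 were not tested. RAB28, an abscisic acid-responsive member, was at 0.983 and 0.861 FPKM in Col-0 and 4.01 and 2.98 in the mutant (log2 difference 1.22, SE 0.27, limma adjusted p = 0.0252), but the call was lost after quantile rescaling (0.0554) and with either mutant replicate left out (0.223 and 0.143). Its mRNA rose 4.73-fold in the authors' deposited table (q = 0.00872). AT5G27980 was at 0.327 and 1.09 FPKM against 2.83 and 2.98 (limma adjusted p = 0.0398), a call lost in 7 of 10 alternatives, among them both rescalings (0.0839 and 0.130), either mutant replicate left out (0.221 and 0.224) and a pseudocount of 0.1 (0.0683).

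AT5G27980 overlaps AT5G27990, which was at 9.38 and 10.3 FPKM in Col-0 and 15.3 and 13.2 in the mutant. The library kit keeps strand, but whether the authors' counting used it is not given, so reads of the overlapping pair cannot be told apart. Its mRNA was at 0.0652 and 0.258 FPKM in the authors' deposited table (q = 1). AT3G22490, which overlaps the gene PDF2, was listed at 0 in Col-0 and at 1.22 and 2.67 FPKM in the mutant. Its neighbour ECP31 was listed at 0 in both mutant columns, and the neighbours AT5G53260 and AT5G53270 were under 0.2 FPKM in every column.

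**Figure D2:**
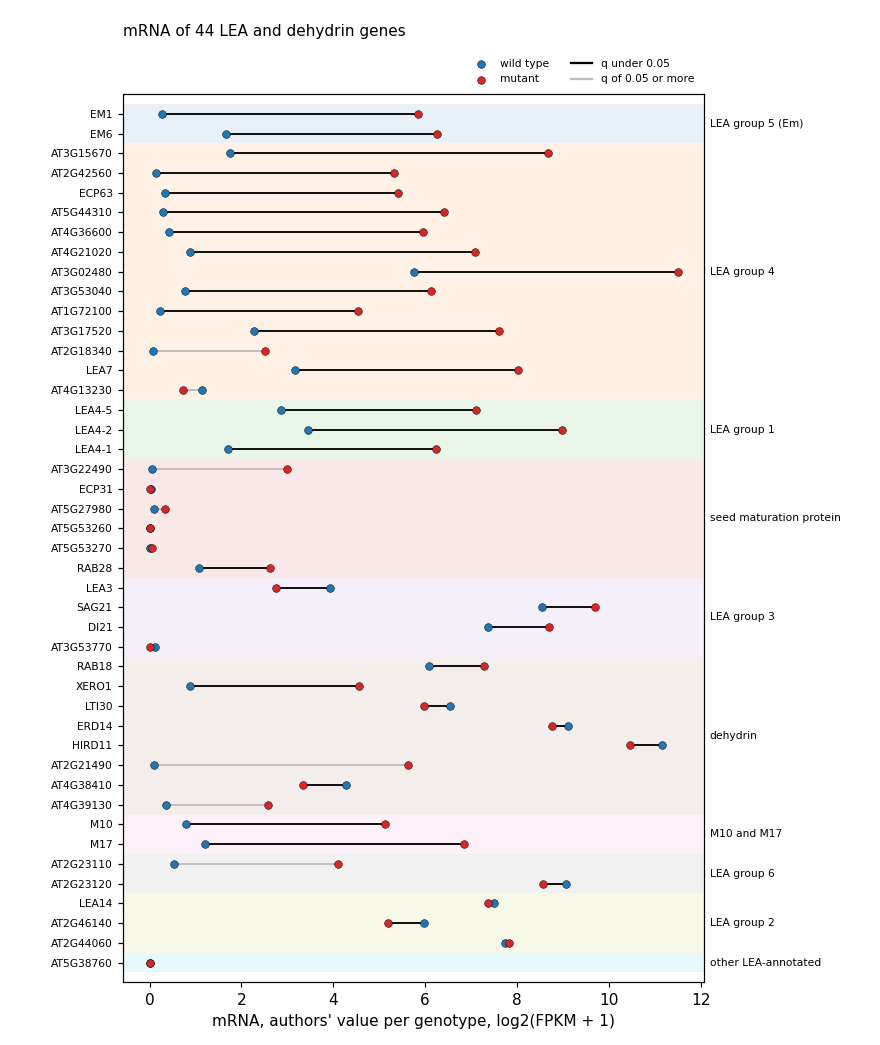
mRNA of each of the 44 members in the wild type (blue) and the mutant (red), as log2 of the authors' deposited value + 1, with a black line where the authors' q is under 0.05 and a grey line otherwise. The longest lines belong to genes of LEA groups 5, 4 and 1, M10, M17 and the dehydrin AT2G21490, those of XERO1, AT2G23110 and AT3G22490 are somewhat shorter, and the 7 members that fell have short lines at high or middle levels, from LEA3 at 14.2 FPKM to HIRD11 at 2276 FPKM in Col-0.

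The dehydrins split in mRNA. RAB18 and XERO1 rose in the authors' deposited table, while HIRD11, ERD14, LTI30 and AT4G38410 fell, and AT2G21490 and AT4G39130 did not pass. In chromatin-bound RNA 2 of the 8 rose, 3 did not pass and 3 were not tested.

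AT2G21490 had the largest mRNA ratio of any member in the authors' deposited table, from 0.0732 to 48.2 FPKM, yet with q = 0.397. Its chromatin-bound RNA rose, from 0 and 0.793 FPKM to 6.51 and 11.6 (log2 difference 2.86, SE 0.38, limma adjusted p = 0.00507), but without mutant replicate 2 the call was lost (0.0805). RAB18, the dehydrin used as a standard abscisic acid reporter, was at 1.77 and 1.91 FPKM in Col-0 and 3.78 and 5.91 in the mutant (2.63-fold, limma adjusted p = 0.0425). That call was lost after both rescalings (0.0990 and 0.146) and with any column left out (0.0592 to 0.298). RAB18 overlaps PLP3b, which was at 6.68 and 5.59 FPKM against 8.45 and 7.15. RAB18 mRNA rose 2.32-fold in the authors' deposited table, from 67.2 to 156 FPKM.

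XERO1 and LTI30 are neighbouring dehydrin genes, and in the authors' deposited table they moved in opposite directions. XERO1 mRNA rose there from 0.847 to 22.6 FPKM (q = 0.000329). LTI30 is known as a membrane-binding protein whose gene responds to low temperature. Its mRNA fell there from 91.8 to 61.6 FPKM (q = 0.00212). Chromatin-bound XERO1 was listed at 0 in both wild-type columns and at 1.51 and 2.39 in the mutant, under the filter. Chromatin-bound LTI30 was at 10.8 and 8.32 FPKM against 17.8 and 8.15, groups that overlap (limma adjusted p = 0.521).

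HIRD11, a small histidine-rich dehydrin that binds metals, had the highest wild-type mRNA of all members. The authors' deposited table has it at 2276 FPKM in Col-0 and 1409.8 in the mutant, 0.619 of the wild-type value (q = 0.000329). Chromatin-bound HIRD11 was at 27.2 and 35.2 FPKM against 21.9 and 12.6, without overlap, with a log2 difference of -0.86 (SE 0.28, limma adjusted p = 0.0726). It was called lower after median-of-ratios rescaling (0.0424) and with the replicate number as a block (0.0429). ERD14, an acidic dehydrin of the early response to dehydration, had overlapping groups of 49.4 and 70.9 against 71.2 and 58.8 FPKM, and its mRNA was at 0.782 of the wild-type value in the authors' deposited table (q = 0.0419). AT4G38410 mRNA was at 0.496 of the wild-type value there (q = 0.000329), while its chromatin-bound level was under 0.7 FPKM in every column.

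LEA group 3 holds proteins known from stress and senescence. SAG21, which responds to oxidative stress, was the member with the highest chromatin-bound level, at 392 and 317 FPKM in Col-0 and 234 and 298 in the mutant. The mutant columns were the lower ones without overlap, but the change did not pass (log2 difference -0.42, SE 0.21, limma adjusted p = 0.202), except after quantile rescaling (0.00985). SAG21 mRNA rose 2.21-fold in the authors' deposited table, from 373 to 826 FPKM. DI21, a drought-induced gene, had overlapping chromatin-bound levels of 24.5 and 15.9 against 19.9 and 19.1 FPKM, and its mRNA rose 2.52-fold in the authors' deposited table, from 164 to 413 FPKM. LEA3 mRNA fell there from 14.2 to 5.72 FPKM (q = 0.000329), with chromatin-bound levels between 0.253 and 1.97 FPKM, and AT3G53770 was listed at 0 in all 4 chromatin-bound columns.

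LEA groups 2 and 6 had RNA of both kinds in both genotypes. LEA14, a folded protein of LEA group 2, was at 41.0 and 29.96 FPKM of chromatin-bound RNA in Col-0 and 87.7 and 64.0 in the mutant, a 2.14-fold rise (log2 difference 1.07, SE 0.23, limma adjusted p = 0.0231). Its call did not hold without wild-type replicate 2 (0.0636) and without either mutant replicate (0.182 and 0.0874). LEA14 mRNA was at 179 and 165 FPKM in the authors' deposited table (q = 0.574). Of the other group 2 members, AT2G46140 mRNA fell from 62.3 to 35.5 FPKM in the authors' deposited table (q = 0.000329), and AT2G44060 passed in neither kind of RNA, with chromatin-bound levels of 45.7 and 40.8 against 53.5 and 66.8 FPKM.

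LEA group 6 is a pair of neighbouring genes that differed in level. AT2G23120 mRNA fell from 537 to 379.7 FPKM in the authors' deposited table (q = 0.00212), and its chromatin-bound levels of 32.8 and 25.7 against 42.5 and 28.9 FPKM overlapped. It overlaps AT2G23118, listed at 0 in all 4 chromatin-bound columns. AT2G23110 mRNA was at 0.455 and 16.1 FPKM in the authors' deposited table (q = 0.213), and its chromatin-bound level was between 0 and 1.33 FPKM. The last member, AT5G38760, was listed at 0 in every column of both kinds of RNA.

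**Figure D3:**
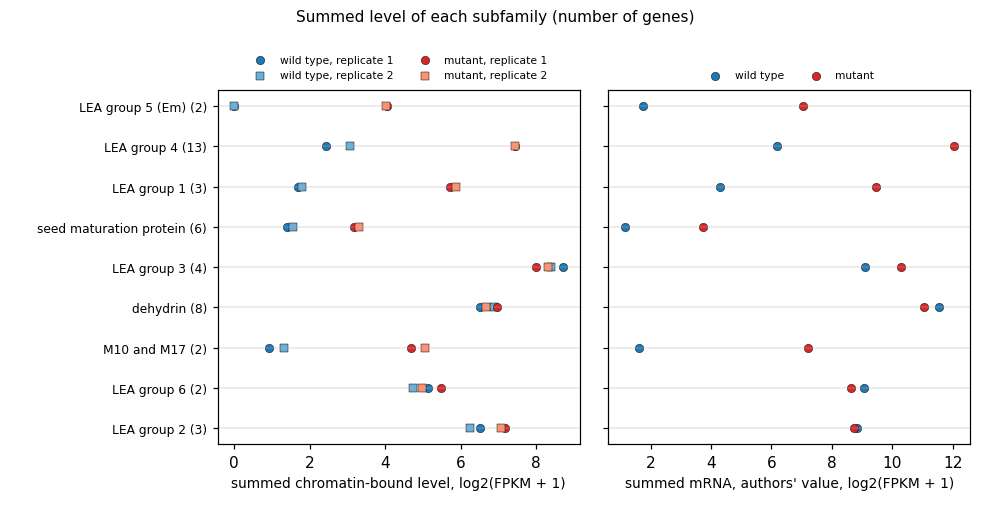
Summed FPKM of each LEA subfamily with a level above 0, as log2(sum + 1), in the 4 chromatin-bound columns (left) and in the authors' 2 mRNA values (right); the number of genes stands in brackets. In LEA groups 5, 4 and 1, the seed maturation proteins and M10 with M17 the mutant sums lie to the right of the wild-type sums in both panels, and for the dehydrins the mRNA sum is 3010.4 FPKM in Col-0 and 2146 in the mutant.

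Summed over all 44 members, chromatin-bound RNA came to 641 and 565 FPKM in the wild-type columns and 838 and 866 in the mutant columns. Much of that sum was SAG21, and without it the columns were at 249, 247, 603 and 568 FPKM in the same order. In the authors' deposited table the members' mRNA made up 0.499% of the summed values in Col-0 and 1.07% in the mutant, or 0.743% in the mutant without AT3G02480. The number of members at or above 100 FPKM of mRNA was 7 in Col-0 and 16 in the mutant of that table. The share of all genes at or above that level was not counted.

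By ratio, 24 members were over 10-fold higher in the mutant's mRNA in the authors' deposited table, where 1.11% of all listed genes were. Of these 24 members 19 had a q under 0.05, and the 5 others, AT2G18340, AT3G22490, AT2G21490, AT4G39130 and AT2G23110, had q between 0.120 and 0.397. Their wild-type mRNA was under 0.5 FPKM in the authors' deposited table.

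Across the 44 members the change in chromatin-bound RNA and the change in mRNA, both on log2(FPKM + 1), went together with Pearson's r = 0.912 and Spearman's rho = 0.852. Over 23539 genes above 0 in both kinds of RNA the values were 0.264 and 0.257. These are descriptions across genes, which share libraries and are not independent replicates. LEA14, AT2G21490 and AT5G27980 were called higher in chromatin-bound RNA and not in mRNA. Among tested members, DI21 and SAG21 were called higher in mRNA of the authors' deposited table and not in chromatin-bound RNA.

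**Figure D4:**
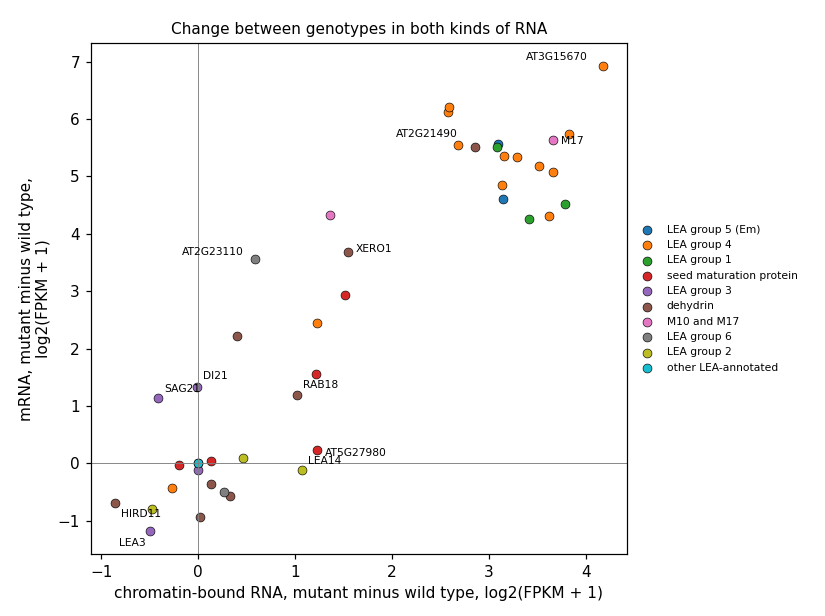
Difference between mutant and wild type in chromatin-bound RNA (horizontal) and in mRNA (vertical), both on log2(FPKM + 1), with 1 point for each of the 44 members coloured by subfamily. A cluster of LEA group 4, 5 and 1 genes lies at the upper right with M17 and AT2G21490, and SAG21 lies above 0 in mRNA and below 0 in chromatin-bound RNA.

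Regulators of these genes were read from a list of 19 transcription factors and repressors of seed maturation and abscisic acid response. In chromatin-bound RNA 6 rose and 8 did not pass, and 5 were not tested. Of all tested genes 13.2% were called higher and 4.24% lower. ABI5 was at 1.31 and 1.72 FPKM in Col-0 and 12.3 and 13.8 in the mutant (8.61-fold, limma adjusted p = 0.00137), ABI3 at 0.179 and 0.362 against 4.10 and 6.31 (0.00486), and ABI4 at 0 in both wild-type columns against 2.88 and 4.04 (0.00585). ABI3 and ABI4 had wild-type means of 0.270 and 0 FPKM and so passed the filter only through their mutant values. EEL, a bZIP factor that binds Em promoters, rose 2.26-fold (limma adjusted p = 0.0185). The embryo regulators LEC1 and LEC2, the bZIP gene BZIP67 and the seed heat shock factor HSFA9 were listed at 0 in all 4 columns. No filter left 0 of the 19 called, and without mutant replicate 1 or 2 the calls were 2 and 1. ABI3, ABI5 and EEL rose in mRNA in the authors' deposited table, and ABF1 and ABF4 fell, with ABI5 at 2.16 and 18.1 FPKM. Among all genes listed there 10.5% rose and 11.0% fell.

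Of 20 abscisic acid receptors, phosphatases and kinases, 1 rose in chromatin-bound RNA, 17 did not pass and 2 were not tested. The share called higher among all tested genes was 13.2%. The rise was AHG1, a phosphatase known from seeds, at 0.317 and 0 FPKM against 2.86 and 2.26 (limma adjusted p = 0.0164), and it was not called without mutant replicate 2 (0.121) and under the filter without mutant replicate 1. AHG1 had a wild-type mean of 0.158 FPKM and so passed the filter only through its mutant values. With no filter it was not called (limma adjusted p = 0.0962). For mRNA the authors' deposited table has 5 higher and 4 lower, against 10.5% and 11.0% of all listed genes. The phosphatase ABI1 fell there from 66.5 to 42.4 FPKM.

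Among 11 cold-regulated and other LEA genes outside the 44, 3 rose in chromatin-bound RNA, 5 did not pass and 3 were not tested. Of all tested genes 13.2% were called higher. RD29B, a desiccation- and abscisic acid-responsive gene, was listed at 0 in both wild-type columns against 22.6 and 21.1 FPKM (limma adjusted p = 0.000402). RD29B thus passed the filter only through its mutant values, and with no filter its limma adjusted p was 0.0228. UNE15 rose 3.29-fold (limma adjusted p = 0.0214). Of the 11 genes, 1 was called without mutant replicate 1, and likewise 1 without mutant replicate 2 or without the filter. KIN1 was at 2.41 and 0 FPKM against 12.1 and 6.91 (limma adjusted p = 0.0270), but its neighbour KIN2 is so alike that reads may be shared. The dehydrin genes COR47 and ERD10 fell in mRNA in the authors' deposited table to 0.417 and 0.319 of the wild-type value, and RD29B rose 33.1-fold.

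Of 11 seed storage and oil-body genes, markers of seed tissue, 4 were tested, CRA1, CRC, OLEO1 and OLEO2. All 4 had a wild-type mean under 1 FPKM and so passed the filter only through their mutant values, and limma called them higher. Among all tested genes with such a mean 43.0% were called higher. With no filter 0 of the 11 were called, and without mutant replicate 2 the call was left for 1. The list's summed level was 1.64 to 5.40 FPKM in the wild-type columns and 69.2 to 96.1 in the mutant columns. CRA1, a cruciferin, was at 1.14 and 0 FPKM against 44.8 and 58.4 (limma adjusted p = 0.000788), and none of the 11 was at 0 in all 4 columns. The 2S albumin genes SESA1 to SESA5 stayed under 1.1 FPKM in every column, with SESA5 lower in both mutant columns. Of the 11 genes 5 rose in mRNA in the authors' deposited table, where 10.5% of all listed genes rose. The sum went from 10.7 to 599 FPKM. The part of these markers, and of seedling stage, in the change of the LEA genes was not tested.

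Of 5 root markers, IRT1 and FRO2 rose, PRP3 fell and 2 did not pass in chromatin-bound RNA, while 4 fell and 0 rose in mRNA in the authors' deposited table. For this list and the next, the shares of all genes were 13.2% higher and 4.24% lower in chromatin-bound RNA. In mRNA they were 10.5% and 11.0%. IRT1 and FRO2 had wild-type means of 0.122 and 0.0742 FPKM and so passed the filter only through their mutant values. Without the filter FRO2 was called (limma adjusted p = 0.0493), and IRT1 (0.0667) and PRP3 (0.116) were not. Of the 5 leaf photosynthesis markers 2 rose, 1 fell and 2 did not pass in chromatin-bound RNA, with 0 rises after either rescaling, and 2 fell in mRNA in the authors' deposited table. Their part in the LEA result was not tested.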

How the data were processed

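The authors deposited chromatin-bound RNA as FPKM, 1 table per genotype with 2 replicate columns, and mRNA as 1 value per genotype with a q-value, a p-value adjusted by the authors. The mRNA unit is not written in the file and was read as FPKM. The labels give 2 chromatin-bound libraries per replicate number, without saying how they were combined. The submitters' processing notes name Cuffdiff 2.2.1, Cufflinks, TopHat2 2.1.1, StringTie 1.3.4d and HISAT2 2.0.5 and give their roles nowhere. The 1 column not used repeats mutant replicate 2, and the 6 iCLIP libraries were not analysed here.

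limma 3.58.1 in R 4.3.3 was fitted with an intensity trend to log2(FPKM + 1) of every gene whose mean reached 1 FPKM, comparing 2 columns per genotype, with p-values adjusted over all genes by Benjamini and Hochberg and a threshold of 0.05. It was tested on simulated data. Fold changes on this scale understate those of low genes. Folds are ratios of means and are given where the wild type is at least 1 FPKM and above 0 in each column. Each genotype has its own table, and levels compared across the tables rest on each column having been scaled to its total. Names and neighbours come from the RefSeq gene table of TAIR10.1, where all 44 members matched. Alternatives were the pseudocount, the filter, 2 rescalings, a replicate block and each column left out. Every member called in chromatin-bound RNA has its values or range there, with a limma adjusted p or its range. mRNA is given by values, fold or range, with q for only some of the called members. Other members are given by values or ranges, and from each list up to 4 called genes are named. The members and lists were chosen with earlier results of these data known.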

Additional observations from a re-analysis of the deposited data

Results flagged for a closer look

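SAG21 was singled out because its genotype difference ran in opposite directions in the 2 kinds of RNA. Opposite signs were also seen for LTI30, ERD14, AT2G23120 and DI21, whose chromatin-bound columns overlapped. LEA14 had them too, but its mRNA change did not pass. The chromatin-bound log2 change of SAG21 was -0.42, with both mutant columns, 234 and 298 FPKM, below both wild-type columns, 392 and 317 FPKM. In the authors' deposited table its mRNA was at 373 FPKM in Col-0 and 826 in rz-1b rz-1c (q = 0.000329). The difference between the 2 kinds of RNA was not tested, since mRNA has 1 deposited value per genotype. Groups of 2 columns were too small to look for outlying samples.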

How the results depend on the processing

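The count of 22 members higher in chromatin-bound RNA was 11 with no filter on low values, 12 of 19 tested with a mean of at least 5 FPKM, and 13 to 25 with each column left out, where 0 were lower. Median-of-ratios, quantile rescaling and the replicate block each called 1 lower. The share of all genes called was counted only for the main fit and the fit with no filter. Whether the other counts follow the members or the call rate of all genes was not tested. The members' median above all genes, 2.42, was 3.88 with a pseudocount of 0.1, 1.17 with no filter, 2.88 with a mean of at least 5 FPKM, 1.14 for genes above 0 in at least 1 column, an alternative chosen after seeing the data, and 2.13 to 2.55 with each column left out. The mRNA median was 5.08 when 1 FPKM in the higher genotype was required. The fits by a single member gave 274 values with the same call, 39 that lost it, 5 that gained it and 9 that changed sign, all 9 among uncalled changes. Those were ERD14 after rescaling (-0.15 and -0.044) and with a column left out (-0.13 to 0.38), AT2G23120 after median-of-ratios rescaling (-0.0082) and with a column left out (-0.0061 to 0.53), LTI30 with a column left out (-0.20 to 0.84) and DI21 with a column left out (-0.32 to 0.28). The cause was not tested. The call held in every alternative with a value for 8 members, EM1, EM6, ECP63, AT3G02480, LEA4-5, LEA4-2, AT1G72100 and AT3G17520.

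Same-numbered columns of the genotypes deviated together with r = 0.01 across 19694 genes, and the labels name nothing shared by them, so no pairing was taken from the numbers. Among single genes, replicate 1 was above replicate 2 in both genotypes for LTI30, LEA14, COR47, ERD10, KIN2 and RD29A. The same held for other genes, such as DI21, AT2G23120 and KIN1. With the replicate block 23 members were called higher, AT2G18340 being the one gained (adjusted p = 0.0378), and the cold-regulated list went from 3 to 5. Depth limits the wild type, whose columns are the shallower ones: a member listed at 0 there was not detected at that depth. Promoter and protein comparisons were not run.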

Other observations

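The order of the members by level differed between the kinds of RNA. In wild-type chromatin-bound RNA the highest means were SAG21 at 355 FPKM, ERD14 at 60.1, AT2G44060 at 43.3, LEA14 at 35.5 and HIRD11 at 31.2. In the authors' deposited table the highest wild-type mRNA values were HIRD11 at 2276 FPKM, ERD14 at 555, AT2G23120 at 537 and SAG21 at 373. In the mutant's mRNA of that table AT3G02480 stood first at 2893 FPKM, and LEA4-2 was at 502. In mutant chromatin-bound RNA SAG21 stayed first at 266 FPKM, followed by LEA14 at 75.8, ERD14 at 65.0, AT2G44060 at 60.1 and AT3G02480 at 55.1.

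Of the 5 pairs of members that are neighbouring protein-coding genes, M10 and M17 both rose in mRNA, and LTI30 and XERO1 moved in opposite directions, in the authors' deposited table. In the other 3 pairs at most 1 gene had a q under 0.05 there.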
